A study of Mus musculus with 12 samples.

Results

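Expression of the SR splicing factor genes Srsf1 to Srsf7 and of the CLK kinase genes Clk1, Clk2 and Clk4 was examined in Flt3-ITD mouse leukemia cells given the p300/CBP bromodomain inhibitor CCS1477 (inobrodib) or vehicle. The 10 genes were taken by symbol from a table of 15651 genes. All 10 were found, each in a single row, and all 10 passed the filter on low values in every comparison. The largest response was that of Clk1, whose transcript level rose with CCS1477 in cells of 6 of 6 mice, although its treated and vehicle samples overlapped in D/F. Srsf4, Srsf5 and Clk4 also rose in 6 of 6 mice and Srsf7 fell in 6 of 6, by smaller amounts. Of all genes tested, 31.8% were higher and 24.2% lower in all 6 mice. The most abundant SR gene, Srsf1, stayed within a few percent of its vehicle level on average.

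SR proteins bind exonic sequences in pre-mRNA through RNA recognition motifs and recruit the spliceosome through a tail rich in arginine and serine, the RS domain. SRPK kinases in the cytoplasm and CLK kinases in the nucleus phosphorylate that tail, which releases SR proteins from nuclear speckles and tunes which exons are used. Many of these genes also limit their own expression through alternative transcripts that are kept in the nucleus or degraded, and SRSF2 is among the splicing factors recurrently mutated in human myeloid malignancy.

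The cells were leukemic splenocytes of moribund mice, enriched for c-Kit (CD117) with magnetic beads, so the mice were diseased and no healthy cells were among the samples. D/F leukemias carried Dnmt3afl/fl,Flt3ITD/ITD,Mx1Cre and T/F leukemias carried Tet2fl/fl,Flt3ITD/ITD,Mx1Cre, and every sample, vehicle controls included, was therefore homozygous for the Flt3 internal tandem duplication. Mx1-Cre, an interferon-inducible driver, was left to delete the floxed alleles spontaneously, without an inducer, so the extent of deletion may vary between cells. Cells of 3 mice of each genotype were divided between CCS1477 and DMSO for 6 hours in medium with SCF, IL6 and IL3, which gave 12 libraries in 4 groups of 3. D/F cells received 4 µM CCS1477 and T/F cells 2 µM, so genotype and dose cannot be told apart in any comparison of the 2 responses. The age of the mice was not given in the sources used here.

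The genes lie on 7 chromosomes of the GRCm38 mouse genome, and each has coding as well as noncoding transcripts in its GENCODE annotation. Clk1 (chr1:58410189-58424066, minus strand) has 13 annotated transcripts, of which 1 is protein coding, 7 retain an intron and 2 are targets of nonsense-mediated decay. Clk4 (chr11:51261730-51281766, plus strand) has 14, with 7 that retain an intron, and Clk2 (chr3:89164795-89176921, plus strand) has 11, with 4. Srsf4 (chr4:131873617-131901706, plus strand) and Srsf7 (chr17:80200080-80207307, minus strand) have 4 and 8 transcripts, and each of the 10 genes has at least 1 of either noncoding kind. The deposited values are per gene, and which transcripts enter a gene's value is not given in the sources used here. A change in that value could thus come from coding or noncoding transcripts, and splicing itself was not measured.

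CLK kinases carry the LAMMER signature in their kinase domain, and the bases that encode it are shown because they separate the 3 paralogs from each other. In each gene the stretch lies within coding exon 11 of the transcript with the longest coding sequence. Capitals mark the 11 of 33 bases at which the genes are not all alike.
Clk1 (chr1:58412979-58413011): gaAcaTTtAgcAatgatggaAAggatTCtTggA
Clk2 (chr3:89175407-89175439): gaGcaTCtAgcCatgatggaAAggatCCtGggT
Clk4 (chr11:51280373-51280405): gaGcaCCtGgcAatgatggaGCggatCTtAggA

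The 3 coding sequences are of similar length, with 483 codons in Clk1, 500 in Clk2 and 481 in Clk4, but reads can tell them apart. Of 8327 distinct 31-base words in the Clk1 transcripts, 36 also occur in Clk4 and 0.937% occur in a transcript of any other gene. That share is 2.07% for Clk4 and 0.579% for Clk2. Among the SR genes it was highest for Srsf5 (14.1%) and Srsf3 (13.8%), mostly through annotated loci named Gm12966 and Gm12355, and their values carry that uncertainty. On the other strand, 41% of the Srsf4 words and 23% of the Srsf2 words match transcripts of overlapping or other genes, and whether the authors' quantification used strand is not given in the sources used here.

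For the SR genes that moved with treatment, the longest run of strictly alternating arginine and serine codons is shown as an example of the sequence that CLK kinases act on. The Srsf4 run is split by an intron between exons 4 and 5 (chr4:131897867-131897871 and chr4:131900062-131900080), and the Srsf7 run lies in exon 6.
Srsf4: tcaaggtctcgctctcgaagcaga
Srsf7 (chr17:80202711-80202743): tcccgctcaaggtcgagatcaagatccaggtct
These runs have 8 and 11 codons. Over the whole coding sequence, Srsf4 encodes 106 arginine-serine or serine-arginine steps, more than Srsf6 (74), Srsf7 (55), Srsf2 (52), Srsf5 (49), Srsf1 (30) and Srsf3 (25), and its coding sequence of 491 codons is the longest of the 7.

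In vehicle-treated cells the SR genes were among the most abundant transcripts. Levels are given in TPM, an abundance scaled for transcript length and library total, so that genes can be compared with each other. Srsf1 led the order in both genotypes, at 525 TPM ± 60.8 (SD, n = 3) among D/F mice and 531 ± 16.0 among T/F mice, followed by Srsf2 at 455 ± 46.9 and 475 ± 13.1. Srsf3 came next, at 302 ± 24.5 and 349 ± 10.5, then Srsf5 at 260 ± 34.6 and 246 ± 1.09, and Srsf6 at 238 ± 37.8 and 233 ± 14.4. In T/F cells these 5 genes did not overlap with their neighbours in the order, whereas in D/F cells only the steps from Srsf2 to Srsf3 and from Srsf6 to Clk4 were free of overlap.

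The remaining genes were lower. Clk4 was the most abundant CLK gene under vehicle (143 ± 24.6 TPM in D/F, 126 ± 10.7 in T/F), level with Srsf7 (127 ± 14.6 and 127 ± 8.83). Clk1 followed (109 ± 41.6 and 92.3 ± 0.399), and Clk2 (71.4 ± 10.3 and 61.0 ± 3.28) and Srsf4 (68.4 ± 4.72 and 67.7 ± 1.66) were lowest. Even so, across the 12 libraries every one of the 10 genes ranked at percentile 80.0 or above among all genes in the table, and Srsf1 at percentile 98.4 or above.

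The libraries summed to between 914204 and 931697 TPM. Myc, a known target of p300/CBP inhibition, fell from 378 ± 84.7 to 19.2 ± 1.48 TPM in D/F cells and from 268 ± 40.9 to 23.8 ± 4.01 in T/F cells (both n = 3), and the transcripts of the drug's targets, Ep300 and Crebbp, were higher with CCS1477 in cells of every mouse. Tet2 was 41.2 ± 2.63 TPM among D/F mice and 33.4 ± 3.03 among T/F mice under vehicle, lower in T/F without overlap under both treatments (limma adjusted p = 0.803 under vehicle and 0.343 with CCS1477). Dnmt3a was 39.4 ± 14.3 and 45.3 ± 7.55 under vehicle, with overlap. Kit, the marker used for enrichment, was present in every library under vehicle, at 50.5 to 149 TPM. D/F replicate 2 stood apart from the other D/F mice: its mean correlation with them was 0.950 under vehicle and 0.953 with CCS1477, against 0.963 to 0.970 for theirs. Under vehicle its summed level of 5 megakaryocyte markers was 237 TPM against 46.2 and 63.0, its 8 mature neutrophil markers summed to 2713 TPM against 9409 and 6282, and Kit was 149 TPM against 50.5 and 60.9. Markers of several cell types also moved with CCS1477. The 10 progenitor markers, all in the table, summed to 3782 to 8614 TPM under vehicle and 853 to 3528 with the drug in D/F, and to 3528 to 5100 and then 1519 to 2491 in T/F. The 7 monocyte and macrophage markers in the table, of 8 listed, went from 567 to 1399 TPM down to 180 to 600 in D/F and from 621 to 816 down to 226 to 331 in T/F. The sum of 3 of 6 B cell markers went from 49.8 to 59.0 up to 104 to 132 in T/F. In D/F that sum was 25.8 to 51.8 under vehicle and 20.9 to 49.5 with CCS1477. The part of these cell types in the changes of the 10 genes was not tested. Fewer cells of a type and less RNA per cell cannot be told apart in such bulk samples.

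**Figure D1:**
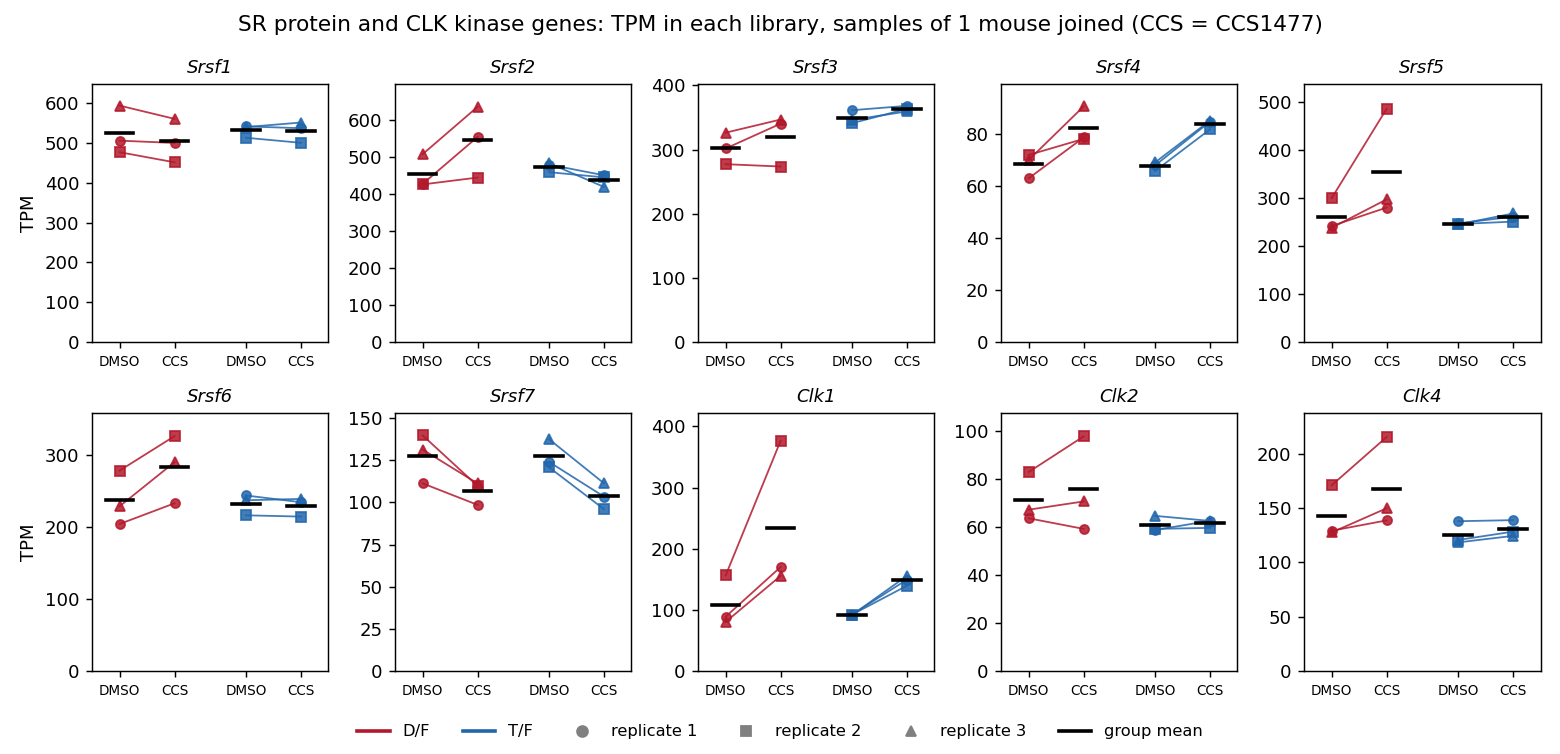
TPM of each gene (vertical axes, starting at 0) in each of the 12 libraries, with DMSO and CCS1477 samples of the same mouse joined, D/F in red and T/F in blue, and group means as black bars. Clk1 climbs in all 6 mice, from levels of 80.5 to 157 TPM under vehicle to levels of 140 to 377 TPM with CCS1477. D/F replicate 2 (red squares) is the highest mouse under both treatments for Srsf5, Srsf6, Clk1, Clk2 and Clk4.

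Clk1, a nuclear dual-specificity kinase of SR proteins, was higher with CCS1477 in every mouse. In D/F cells it went from 89.1 to 170 TPM in replicate 1, from 157 to 377 in replicate 2 and from 80.5 to 156 in replicate 3, and in T/F cells from 92.6 to 150, from 92.5 to 140 and from 91.9 to 156. The treated and vehicle T/F samples did not overlap. The D/F groups met, because the vehicle sample of replicate 2 was just above the treated sample of replicate 3. The mean ratio within a mouse was 2.08 ± 0.279 among D/F mice and 1.61 ± 0.0934 among T/F mice (n = 3 each).

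On the log2(TPM + 1) scale, the Clk1 rise in T/F cells was 0.68 ± 0.065 (SE; limma adjusted p = 0.00101). In D/F cells it was 1.04 ± 0.41 and did not pass the threshold (adjusted p = 0.149 by limma with unpaired samples). With the mouse as a replicate block it did, at an adjusted p of 0.00760 and an interval of 0.74 to 1.35. It also passed without D/F replicate 2, at 0.94 (adjusted p = 0.0197, limma unpaired), while in the blocked fit without D/F replicate 3 the rise was 1.09 (adjusted p = 0.0581) and 0 of all 15545 genes were called. The T/F call held in 13 of 14 alternatives and was lost when all 4 groups shared an estimate of the spread (adjusted p = 0.156). Over both genotypes the rise was 0.86 ± 0.22 (limma adjusted p = 0.00862). The exact sign-flip test over the 6 mice gave p = 0.03125, two-sided and unadjusted, the smallest that 6 mice can give. Srsf4, Srsf5, Srsf7 and Clk4 had the same p, as has any gene that moved one way in all 6 mice. Of all genes, 31.8% were higher and 24.2% lower in all 6.

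Clk4 and Clk2, the other CLK kinases examined, moved far less. Clk4 was 129, 171 and 128 TPM in the D/F vehicle samples and 139, 215 and 150 with CCS1477, and in T/F it was 138, 121 and 118 against 139, 128 and 124. It was thus higher with the drug in 6 of 6 mice, but by a mean ratio of 1.17 ± 0.0932 among D/F mice and 1.04 ± 0.0295 among T/F mice, and the groups overlapped in both genotypes. Over both genotypes its log2 change was 0.14 ± 0.12 (limma adjusted p = 0.378; 0.0695 with the mouse as a block). Clk2 was between 58.9 and 97.9 TPM in all 12 libraries, higher with CCS1477 in 4 of 6 mice, with mean ratios of 1.05 ± 0.124 and 1.01 ± 0.0492. The 95% interval of its log2 change in T/F ran from -0.15 to 0.18.

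The makeup of the CLK transcripts also differed between treatments. Clk1 was 31.6%, 38.1% and 29.2% of the summed Clk1, Clk2 and Clk4 TPM in the D/F vehicle samples and 46.2%, 54.6% and 41.4% with CCS1477. In T/F it was 32.0%, 33.9% and 33.4%, and then 42.6%, 42.6% and 45.5%. The order under vehicle, with Clk4 ahead of Clk1, was reversed with CCS1477 in each of the 6 mice, where the ratio of Clk1 to Clk4 averaged 1.34 ± 0.367 among D/F mice and 1.14 ± 0.0983 among T/F mice. The Clk1 share was higher with CCS1477 by 12.4 percentage points ± 2.78 (SD, n = 6). This share, and the ratio of Srsf7 to Srsf4 given with the SR genes, were chosen after the values were seen, so they are given as descriptions, with no test.

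**Figure D2:**
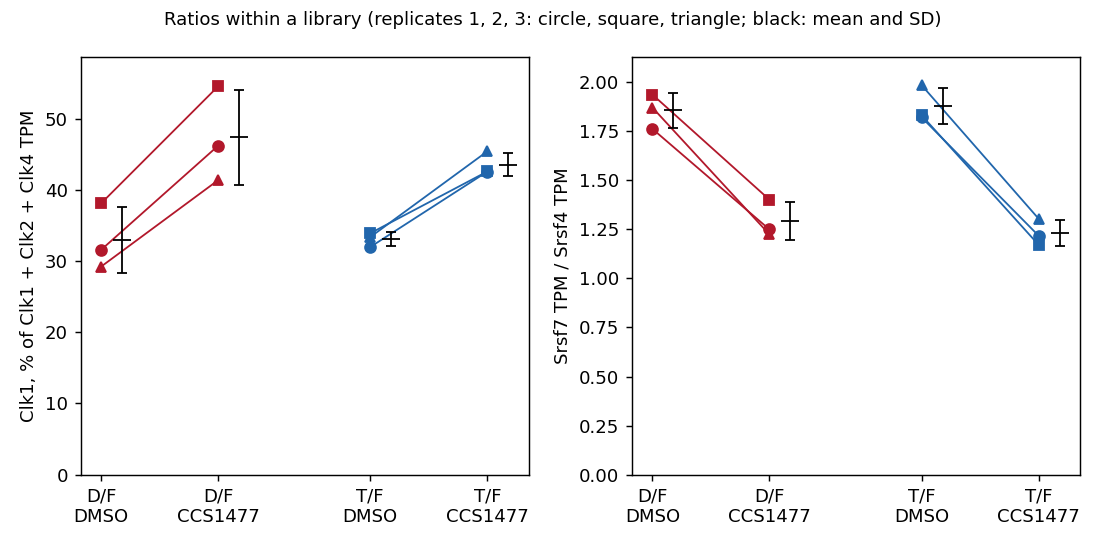
Share of Clk1 in the summed TPM of Clk1, Clk2 and Clk4 (left, percent) and ratio of Srsf7 to Srsf4 TPM (right), for each mouse under DMSO and CCS1477, with group mean and SD in black. The lines of all 6 mice slope up on the left and down on the right, where the mean ratio falls from 1.86 to 1.29 in D/F and from 1.88 to 1.23 in T/F.

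Among the SR genes, Srsf4 rose. Its product, an SR protein of the exonic enhancer-binding kind, has the most arginine-serine steps of the 7. It was 63.1, 72.0 and 70.1 TPM under vehicle and 78.8, 78.2 and 90.7 with CCS1477 in D/F, and 68.0, 65.9 and 69.2 against 84.9, 81.9 and 85.3 in T/F. The treated samples were above the vehicle samples in both genotypes without overlap. The T/F mice gave nearly the same ratio, 1.24 ± 0.00777, while D/F gave 1.21 ± 0.109. The log2 change in T/F was 0.31 ± 0.058 (limma adjusted p = 0.00805) and over both genotypes 0.29 ± 0.065 (adjusted p = 0.00388), and in D/F 0.27 ± 0.15 (adjusted p = 0.274; 0.0948 with the mouse as a block).

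Srsf7, which is close to Srsf3 in its RNA recognition motif and carries in addition a zinc knuckle, fell. It went from 111, 140 and 131 TPM to 98.5, 110 and 111 in D/F and from 124, 121 and 137 to 103, 95.9 and 111 in T/F. The treated samples lay below the vehicle samples in both genotypes, again without overlap. In D/F the groups nearly met, with a lowest vehicle value of 111.193 TPM and a highest treated value of 111.121. The mean ratios were 0.839 ± 0.0504 and 0.813 ± 0.0200. In T/F the log2 change was -0.30 ± 0.087 (limma adjusted p = 0.0366), over both genotypes -0.27 ± 0.078 (adjusted p = 0.0139), and in D/F -0.25 ± 0.16 (adjusted p = 0.327; 0.0882 with the block). The ratio of Srsf7 to Srsf4 TPM differed by -0.607 ± 0.0691 (SD, n = 6), CCS1477 minus vehicle.

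Leaving out a mouse left the T/F changes of these genes near their size but often ended the call. Without T/F replicate 1 or 2, Srsf4 had an adjusted p of 0.0860 or 0.0740 (limma), at a log2 change of 0.30 and 0.31, and without replicate 3 it was still called (adjusted p = 0.0437). In the unpaired fit Srsf7 was not called when any of the 3 was left out, with limma adjusted p from 0.0601 to 0.158 and log2 changes from -0.32 to -0.28. With the mouse as a block and a T/F mouse left out, Srsf4 was called without replicate 3 but not without replicate 1 or 2. In those blocked fits Srsf7 was called without T/F replicate 1 (limma adjusted p = 0.0478) but not without replicate 2 or 3. Its T/F call was also lost with quantile normalization (adjusted p = 0.0637) and with the spread shared by the 4 groups (0.0861). Over both genotypes Srsf4 was called in all 14 alternatives and Srsf7 in 12 of 14, the exceptions being quantile normalization (adjusted p = 0.0595) and leaving out T/F replicate 1 (adjusted p = 0.0510).

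The promoters of Srsf4 and Srsf7, genes that moved in opposite directions, are shown from 250 bases before to 50 after the annotated start (RefSeq, GRCm38.p6). Srsf4 has 3 such entries, of which the first is shown. Capitals mark matches on either strand to a GC box (GGGCGG) or an ETS core (CCGGAAG), the kinds found here among 6 searched, the others being an E-box (CACGTG), a cyclic AMP response element (TGACGTCA), a CCAAT box and a TATA box (TATAAA).
Srsf4 (chr4:131873387-131873686, plus strand): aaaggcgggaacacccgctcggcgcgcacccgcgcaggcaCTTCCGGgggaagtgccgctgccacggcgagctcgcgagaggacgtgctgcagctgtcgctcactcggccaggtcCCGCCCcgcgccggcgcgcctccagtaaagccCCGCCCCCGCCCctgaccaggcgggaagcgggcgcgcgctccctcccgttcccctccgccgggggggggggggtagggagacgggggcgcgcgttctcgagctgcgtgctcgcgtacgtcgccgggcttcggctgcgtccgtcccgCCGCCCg
Srsf7 (chr17:80207256-80207555, minus strand): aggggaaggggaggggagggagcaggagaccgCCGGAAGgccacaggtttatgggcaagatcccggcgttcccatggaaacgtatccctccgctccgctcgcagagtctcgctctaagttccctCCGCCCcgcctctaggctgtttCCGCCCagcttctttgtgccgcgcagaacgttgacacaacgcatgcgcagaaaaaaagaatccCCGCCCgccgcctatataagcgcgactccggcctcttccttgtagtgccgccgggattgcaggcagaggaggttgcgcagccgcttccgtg
Both promoters shown hold an ETS core, at 210 and 218 bases before the start, and several GC boxes, 4 in Srsf4 and 3 in Srsf7. The Srsf4 entry that lies farthest downstream (chr4:131873810-131874109) holds 0 ETS cores and 2 GC boxes. Of 32817 mouse promoters of the same length, 8.86% hold the ETS core and 35.6% a GC box. The TGACGTCA element, in 1.79% of promoters, was matched in Clk4 alone, 65 bases before its start, among the 9 genes with a promoter entry, which are all but Clk1.

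Srsf5, Srsf6 and Srsf2 were higher with CCS1477 in the 3 D/F mice but were called neither there nor in T/F. Srsf5, an SR protein first known from an insulin-induced liver transcript, went from 242, 300 and 238 TPM to 280, 485 and 297 in D/F and from 247, 246 and 245 to 261, 251 and 268 in T/F. It was thus higher in 6 of 6 mice, with mean ratios of 1.34 ± 0.245 and 1.06 ± 0.0361. The D/F value depends on replicate 2, and the other D/F mice had ratios of 1.16 and 1.25. Over both genotypes the log2 change was 0.24 ± 0.14 (limma adjusted p = 0.168), and 0.15 with an adjusted p of 0.0371 without D/F replicate 2. In T/F it was 0.08, and 0.18 with an adjusted p of 0.0489 after quantile normalization. Srsf6 was 205, 279 and 229 TPM against 233, 327 and 291 in D/F, a ratio of 1.19 ± 0.0662, and between 215 and 244 TPM in all 6 T/F samples.

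Srsf2, whose product binds exonic enhancers and acts in transcript elongation as well as splicing, was higher with CCS1477 in the 3 D/F mice and lower in the 3 T/F mice. It was 428, 427 and 509 TPM under vehicle and 556, 446 and 637 with CCS1477 in D/F, but 481, 460 and 484 against 452, 446 and 420 in T/F. The ratios were 1.20 ± 0.135 and 0.926 ± 0.0526. Neither change passed the threshold within its genotype (limma adjusted p = 0.406 among D/F mice and 0.194 among T/F mice). A split of this kind, with the D/F mice all moving up or all down and the T/F mice the opposite, was seen in 2.06% of the 15583 genes tested and in 1 of the 10 described here.

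Srsf1 and Srsf3, the remaining SR genes, were not called. Srsf1, an SR protein with oncogenic activity in several tissues, was 505, 476 and 593 TPM against 500, 451 and 560 in D/F, and between 500 and 551 TPM in every T/F sample. Its 95% interval for the log2 change over both genotypes was -0.20 to 0.14. Srsf3, the shortest SR protein of the 7 in codons (164), had ratios of 1.06 ± 0.0706 and 1.04 ± 0.0235, and its interval was -0.10 to 0.23. Quantile normalization raised its pooled log2 change from 0.07 to 0.17, which was called (limma adjusted p = 0.0235). The summed TPM of the 7 SR genes was 1974 ± 121 under vehicle and 2196 ± 126 with CCS1477 in D/F. In T/F it was 2029 ± 57.8 and then 2009 ± 48.8.

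**Figure D3:**
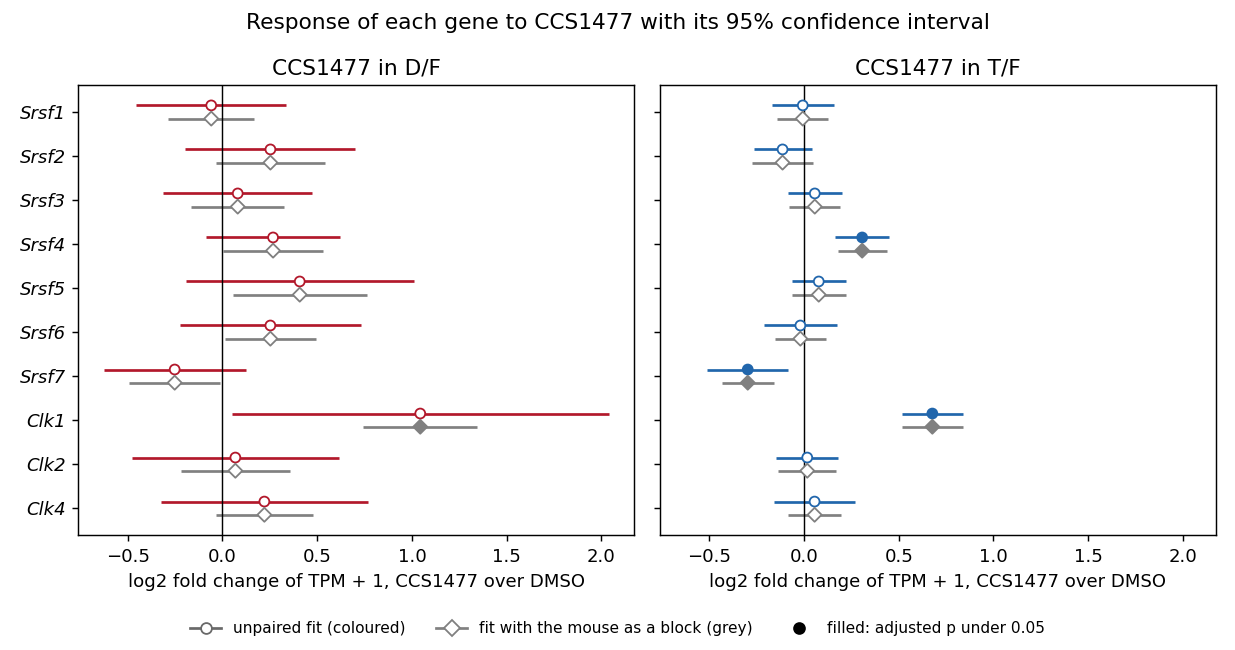
Log2 fold change of TPM + 1, CCS1477 over DMSO, with 95% confidence intervals, for D/F (left) and T/F (right), from the unpaired fit (circles, coloured) and the fit with the mouse as a block (diamonds, grey). Filled symbols passed an adjusted p of 0.05: Clk1, Srsf4 and Srsf7 in T/F in both fits, and Clk1 in D/F in the blocked fit.

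These calls were frequent among all genes. In T/F, 2 of the 10 genes were called higher and 1 lower (limma, adjusted p under 0.05), against 25.8% and 17.6% of all 15256 genes tested. In D/F, 0 of 10 were called in either direction, against 5.14% higher and 6.51% lower of 15501. There 1 of 10 had an unadjusted limma p under 0.05, against 4712 of the 15501. Over both genotypes the counts were 2 higher and 1 lower, against 25.8% and 19.6%. A change above 2-fold at the same threshold was found for 0 of 10 in D/F (7.28% of all genes), T/F (7.33%) and both (8.8%). In each of these counts the share of the 10 genes was below that of the table as a whole.

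The mouse as a block raised the counts for all genes more than for these 10. In D/F it called 1 gene higher, Clk1, and 0 lower, against 21.4% and 18% of all genes. In T/F the counts were 2 and 1, against 31.2% and 22.9%, and over both genotypes 2 and 1, against 34.5% and 25.9%. By mice rather than by fit, 4 of 10 (Srsf4, Srsf5, Clk1 and Clk4) were higher with CCS1477 in all 6 mice and 1 (Srsf7) was lower in all 6, where 31.8% and 24.2% of all genes were.

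Groups that did not overlap gave a similar account. In D/F, Srsf4 was above and Srsf7 below its vehicle samples without overlap, as 19.9% and 16.7% of all genes were. In T/F, Srsf4, Srsf5 and Clk1 lay above and Srsf2 and Srsf7 below, as did 33.5% and 22.6% of all genes. For each of these pairs the exact permutation p was 0.1, two-sided, which is the lowest value that 3 samples against 3 allow.

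The direct comparison of the responses called 0 of the 10 genes and 0% of all genes, in the unpaired fit and in the fit with the mouse as a block alike. Clk1 rose by 0.37 less in T/F than in D/F on the log2 scale (limma unadjusted p = 0.440 unpaired and 0.0244 blocked, adjusted p = 1.000 and 0.281). With the block, Srsf2 differed by -0.37 and Srsf6 by -0.27, T/F minus D/F, at an adjusted p of 0.265 each. These 3 were the only ones of the 10 with an unadjusted p under 0.05 in that fit, where 14.7% of all genes had one.

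Per-mouse changes of the 2 genotypes overlapped for Srsf1, Srsf3, Srsf4, Srsf7 and Clk2. For 5 of the 10 genes, Srsf2, Srsf5, Srsf6, Clk1 and Clk4, the log2 change in every D/F mouse was higher than in every T/F mouse, as for 10.3% of all genes. For 0 of 10 it was lower in every D/F mouse, as for 13% of all genes. The exact permutation p for each of the 5 was 0.1, the smallest that 3 mice against 3 allow. D/F cells had the higher dose, so the part of dose and of genotype in this pattern cannot be told apart.

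Between genotypes under the same treatment, levels of the 10 genes were close. Under vehicle 0 of 10 were called (limma), against 0.0328% of all genes, with log2 differences, T/F minus D/F, from -0.22 to 0.21. With CCS1477, 0 of 10 were called, against 0.0329%, with differences from -0.54 (Clk1) to 0.19 (Srsf3). Without D/F replicate 2 the Clk1 difference with CCS1477 was -0.13. The lowest adjusted p was 0.897 under vehicle and 0.544 with CCS1477. In either, 0 of 10 had an unadjusted limma p under 0.05, against 939 of 15265 genes under vehicle and 1643 of 15199 with CCS1477. Srsf3 was higher in T/F without overlap under vehicle, at 341 to 361 TPM against 277 to 326, and again with CCS1477, at 359 to 368 against 274 to 347, as were 5.17% and 9.59% of all genes. With CCS1477, Srsf5 was lower in T/F without overlap, at 251 to 268 TPM against 280 to 485, as were 10.7% of genes, and under vehicle 0 of 10 were lower without overlap, against 7.42%. Without D/F replicate 2 the Clk1 difference under vehicle changed sign, from -0.17 to 0.12.

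The other kinases that phosphorylate SR proteins, with their phosphatase and importers, were examined as a list of 14 genes. In T/F 5 were called higher and 2 lower, against 25.8% and 17.6% of all genes. In D/F, where 5.14% and 6.51% of all genes were, limma called 0 of 14 (4 at an unadjusted p under 0.05, 5 called with the mouse as a block). The median log2 change was 0.08 in T/F and 0.12 in D/F, against 0.07 and 0.06 for all genes tested. The largest rise in T/F was that of Dyrk1b, a dual-specificity kinase of the DYRK family, from 6.34 ± 0.890 to 13.0 ± 0.187 TPM (log2 change 0.94, limma adjusted p = 0.0013). In D/F the Dyrk1b change was 1.24 (limma adjusted p = 0.107). Clk3, the CLK gene outside the 10, went from 34.3 ± 2.31 to 45.7 ± 1.55 TPM in T/F (0.41, adjusted p = 0.0069) and from 37.6 ± 3.01 to 52.1 ± 3.68 in D/F. Srpk2, a cytoplasmic SR protein kinase, rose in T/F by 0.30 on the log2 scale (adjusted p = 0.0226), and in D/F by 0.33 (0.354). The related Srpk1 went the other way, at -0.30 in T/F (limma adjusted p = 0.0650) and -0.46 in D/F (0.140). Over both genotypes Srpk1 was called lower, at -0.38 (adjusted p = 0.00789). Dyrk3 was called lower in T/F, at -0.46 (adjusted p = 0.00617), and was at -0.68 in D/F (0.101). Tnpo1, a nuclear importer, was at -0.33 in T/F and -0.34 in D/F (adjusted p = 0.00496 and 0.224).

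Of 19 other SR and SR-like genes, 2 were called higher and 2 lower in T/F (limma), below the same shares of all genes, and 0 in D/F, where 1 had an unadjusted p under 0.05 and 1 was called with the mouse as a block. Rbm39, a coactivator and splicing factor with an RS domain, rose in T/F from 552 ± 18.5 to 784 ± 24.1 TPM (log2 change 0.50, limma adjusted p = 0.002), while Luc7l, a U1 snRNP-associated factor, fell from 81.3 ± 2.46 to 56.9 ± 2.05 (-0.51, adjusted p = 0.002). In D/F these 2 changed by 0.64 and -0.27 (limma adjusted p = 0.0678 and 0.327). The medians were 0.02 in T/F and -0.05 in D/F. These genes, like the 10, thus moved in both directions.

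In T/F, more genes of the spliceosome core were called lower than higher. Of 28 Sm, U1 and U2 snRNP genes, 12 were called lower and 1 higher in T/F, against 17.6% and 25.8% of all genes, with a median log2 change of -0.09. In D/F 1 was called lower and 0 higher, against 6.51% and 5.14% of all genes, with a median of -0.19. There 7 had an unadjusted limma p under 0.05. With the mouse as a block 11 were called, where 21.4% of all genes were called higher and 18% lower. Of 21 tri-snRNP and Prp19 complex genes, 10 were called lower and 4 higher in T/F (median -0.15). In D/F limma called 0 of them (median -0.20), with 5 at an unadjusted p under 0.05 and 7 called with the mouse as a block. Snrpa, the A protein of the U1 snRNP, was called in both, at -0.94 ± 0.19 in D/F (limma adjusted p = 0.0314) and -0.73 ± 0.081 in T/F (adjusted p = 0.00152). These lists were not tested as sets, and their medians stand beside 0.06 among D/F mice and 0.07 among T/F mice for all genes.

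Of 26 hnRNP and PTB genes, 5 were called higher and 3 lower in T/F, both below the shares of all genes, and 1 higher and 0 lower in D/F. There 4 had an unadjusted limma p under 0.05, and 6 were called with the mouse as a block. Hnrnph1, an hnRNP that binds G-rich sequences, was the gene called in both, at 0.72 ± 0.15 in D/F (limma adjusted p = 0.0348) and 0.62 ± 0.057 in T/F (adjusted p = 0.000912). Of 17 nonsense-mediated decay and exon junction genes, 5 were called higher and 3 lower in T/F, near the shares of all genes, and 1 in each direction in D/F. There 3 had an unadjusted limma p under 0.05, and 5 were called with the mouse as a block. Upf3a, a decay factor that can oppose its paralog Upf3b, was called in both, at 0.73 ± 0.14 (adjusted p = 0.0260) and 0.81 ± 0.077 (adjusted p = 0.00101). Without D/F replicate 1 or 3 the unpaired fit called 0 of all genes in D/F, and the changes of these 3 genes there ran from -1.03 to -0.95 for Snrpa, 0.68 to 0.71 for Hnrnph1 and 0.70 to 0.71 for Upf3a. The D/F call of Snrpa was lost with median scaling (limma adjusted p = 0.0502) and that of Hnrnph1 with quantile normalization (0.0563).

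**Figure D4:**
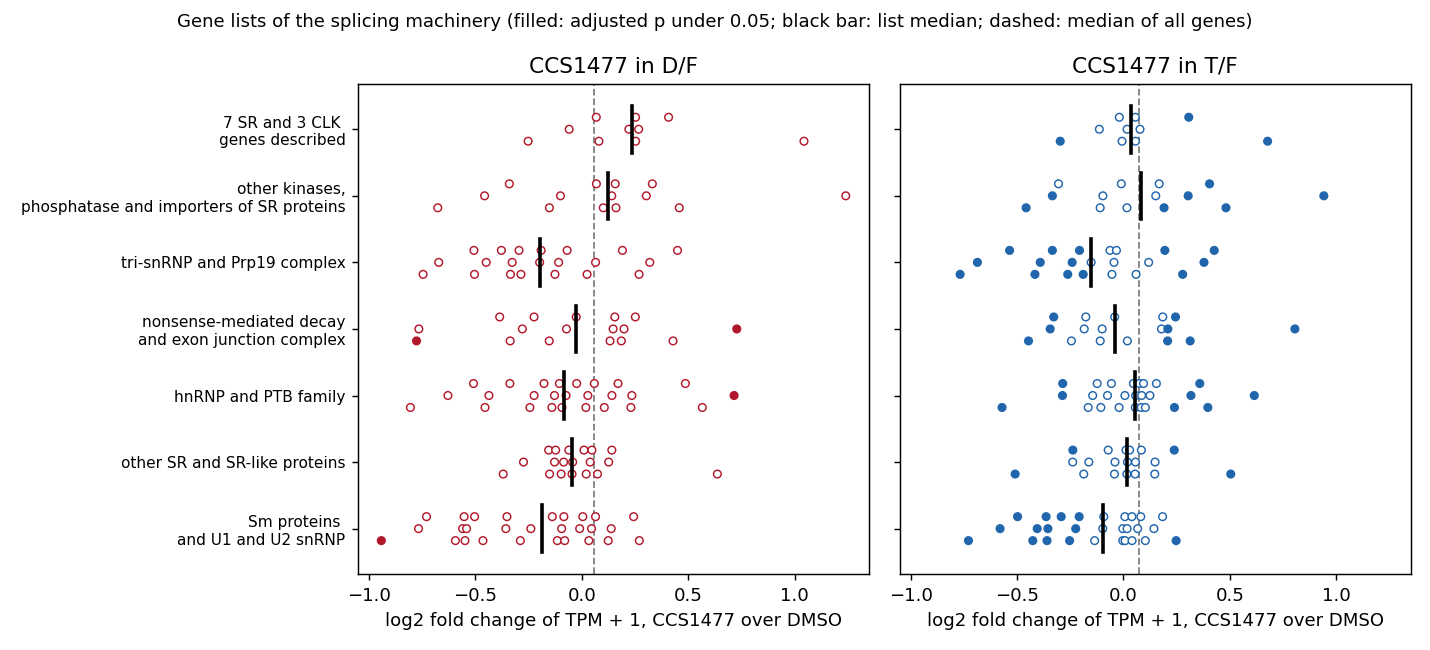
Log2 fold change of TPM + 1, CCS1477 over DMSO, for the 10 genes described and 6 lists of splicing genes (rows) in D/F (left) and T/F (right), with called genes filled, list medians as black bars and the median of all genes tested as a dashed line. The 10 genes sit at a median of 0.24 among D/F mice and 0.04 among T/F mice, and the medians of the snRNP lists lie to the left of the dashed line in both.

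The genes whose profiles across the 12 libraries lay nearest to those of Clk1 and Srsf4 were found by the root mean square distance between log2(TPM + 1) values, each centred on its own mean. Nearest to Clk1 were Zfp119a (distance 0.0858) and 5031425E22Rik (0.104), where the median over all genes was 0.580. Their Pearson correlations with Clk1 were 0.990 and 0.986, as a description over libraries that share mice and treatment. Both genes were lower than Clk1, with Zfp119a between 5.68 and 31.3 TPM and 5031425E22Rik at 57.0 TPM in its highest library. Nearest to Srsf4 were Cnot11 (0.0473), Ncbp3 (0.0497) and Cdc5l (0.0539), against a median of 0.328, with correlations of 0.941 to 0.962.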

How the data were processed

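Gene-level TPM values were deposited by the authors for 12 libraries. The submitters' notes name kallisto and the mm10 build, and the study's methods name AltAnalyze. The transcript annotation, settings and use of strand are not given in the sources used here. The labels name both ribosome depletion and a TruSeq Stranded mRNA kit. TPM keeps no depth, so the depth of each library is unknown and no counting error is given. The table holds no gene whose highest TPM is under 2.0006.

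TPM was tested on log2(TPM + 1), pseudocount 1, with limma 3.58.1 in R 4.3.3 (eBayes, no trend, samples unpaired), on those genes that averaged 1 TPM or more in either group, with Benjamini-Hochberg adjustment over all of them. Genes with an adjusted p under 0.05 are referred to as called. Fold changes on this scale understate those of low genes. Code was tested on simulated data. Permutation tests were exact and two-sided.

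Samples with the same replicate number came from the same mouse, per the labels. Their deviations from the group means correlated at 0.354 to 0.669, against at most 0.141 between different mice. Replicates are separate mice.

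Named besides the 10 members were up to 4 genes of each list called in both genotypes, the 3 nearest profiles (for Clk1, 1 of them is not reported here), and Myc, Ep300, Crebbp, Dnmt3a and Tet2. Dyrk1b, Dyrk3, Clk3, Srpk1, Srpk2, Tnpo1, Rbm39 and Luc7l were named after their values were seen. Members and lists were chosen with earlier results of these data known.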

Additional observations from a re-analysis of the deposited data

Results flagged for a closer look

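Srsf2 stood out because its level was higher with CCS1477 in 3 of 3 D/F mice, by a mean ratio of 1.20 ± 0.135, and lower in 3 of 3 T/F mice, at 0.926 ± 0.0526. The difference of the responses, T/F minus D/F, was -0.3658 on the log2(TPM + 1) scale. The direct limma test of that difference gave an adjusted p of 1.000 unpaired and 0.265 with the mouse as a block, and over the 13 alternatives the difference ran from -0.46 to -0.31. The exact permutation test of the per-mouse changes gave p = 0.1, two-sided, the smallest it allows. Doses were 4 µM for D/F and 2 µM for T/F, so genotype and dose cannot be told apart.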

How the results depend on the processing

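Each result was recomputed with pseudocount 0.1, a filter at 5 TPM, no filter, median scaling, quantile normalization, a trended prior, a fit shared by the 4 groups, each mouse left out, the mouse as a replicate block and a 2-fold rule. Leaving a mouse out together with the block was added after the data were seen. Of the values of single members recomputed, 450 kept direction and side of the threshold, 8 passed it newly, 14 no longer passed it and 13 changed sign, and the cause was not tested.

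In D/F the count of called members was 0, and 1 (Clk1) with the shared fit, with the replicate block, and with the block without D/F replicate 1 or 2. Leaving out a mouse unpaired gave 0 to 1, but without D/F replicate 1 or 3 that fit called 0 of all genes. In T/F the count of 3 became 1 (Srsf4) with the shared fit, 1 with the block without T/F replicate 2 and 0 above 2-fold, and 1 to 2 without a mouse. Over both genotypes it became 0 above 2-fold and ran from 2 (without T/F replicate 1) to 4 (without D/F replicate 2) when a mouse was left out. Quantile normalization kept both counts at 3 with other members: Srsf7 was lost in T/F and over both, and Srsf5 was gained in T/F and Srsf3 over both. The mouse as a replicate block left the T/F and pooled counts at 3. It raised the number of all genes called in D/F from 1805 to 6098.

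The values that changed sign had not passed the threshold as first fitted. With median scaling the T/F log2 change became -0.0231 for Srsf3, -0.0021 for Srsf5, -0.0618 for Clk2 and -0.0237 for Clk4, and the pooled Clk2 change -0.0221. Quantile normalization gave 0.0885 for Srsf6 in T/F. Leaving out a mouse, with or without the block, gave Clk2 in D/F -0.0155 (range -0.0155 to 0.153), Srsf1 in T/F 0.0089 (range -0.0241 to 0.0089) and Clk2 in T/F -0.0185 (range -0.0185 to 0.0498). Clk1 between genotypes under vehicle ranged from -0.3525 to 0.1226, the highest without D/F replicate 2. Median scaling moved the median of all genes in T/F by -0.072 and left 49.7% of its calls higher, against 59.4%, and in D/F the higher share was 44.1%, against 54.6% with quantile normalization and 54.3% with the block. TPM holds no depth, so counting error is unknown.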
